A study of Mus musculus with 6 samples.

Results

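The genes described here build the hard shell of the outermost skin cells. They comprise the late cornified envelope (Lce) genes, loricrin, the filaggrin-type proteins that carry an S100 domain fused to long repeats, and the early scaffold and cross-linking genes against which the late ones are set. They were chosen by symbol, as every Lce gene followed by a digit plus 21 named envelope genes. The rule covers 42 mouse symbols, of which 40 were found among the 35275 gene identifiers of the deposited table. The identifiers of Flg and Lce1d were not found and these genes are not analysed here. Of the 40 genes, 6 are early envelope genes (Ivl, Evpl, Ppl, Scel, Tgm1 and Tgm5) and 34 are late ones. The late ones are 20 Lce genes (13 Lce1, 6 Lce3 and Lce6a), 6 S100-fused genes (Flg2, Hrnr, Rptn, Tchh, Tchhl1 and Crnn) and 8 others (Lor, Kprp, Crct1, Cnfn, Cdsn, Tgm3, Asprv1 and Casp14).

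The libraries came from CD1 IGS mouse embryos at E16.5, counted in days of gestation. Per the labels, the dams carried K10-rtTA, TRE-H2B-GFP and TRE-Spastin. The promoter of keratin 10, a gene of cells above the basal layer, drives the doxycycline-dependent activator rtTA, and TRE transgenes respond to it, giving a fluorescent nuclear histone and the microtubule-severing enzyme spastin. Doxycycline chow was given from E14.5, and cells positive for H2B-GFP were sorted from back-skin epidermis of both groups. The K10-spastin group (K10rtTA;TREspastin in the labels) and the control group have 3 libraries each, from independent RNA samples. The transgenes of the control embryos and the number of embryos per library are not stated in the labels. The p-values therefore measure the spread between these samples, and spastin cannot be told apart from the other transgenes by which the groups may differ.

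As background, a keratinocyte that moves up through the epidermis replaces its plasma membrane with a cornified envelope, an insoluble protein sheet. Transglutaminases first join a scaffold of involucrin, envoplakin, periplakin and related proteins beneath the membrane, and later fill it with loricrin and with the small cysteine- and glycine-rich Lce proteins. Proteases cut profilaggrin, a precursor, into filaggrin, which aggregates keratin filaments and is later broken down. Most of these genes lie side by side in 1 stretch of mouse chromosome 3, the epidermal differentiation complex, which held 30 of the 40 genes here. In human skin, LCE3 genes are known to be raised in psoriasis and after barrier injury, whereas LCE1 genes are expressed in normal epidermis.

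The deposited values are FPKM, a level scaled to gene length and to the mapped fragments of the library. Depths read from the smallest steps of the values were 17.4, 19.6 and 17.4 M (mega) fragments in K10-spastin 1, 2 and 3 and 22.4, 16 and 16.6 M in control 1, 2 and 3. At these depths, 3 fragments in a gene of 1 kb correspond to 0.134 to 0.188 FPKM, which sets the precision of the lowest values, and this covers counting error only. Spast (ENSMUSG00000024068), the induced gene, was at 1431.4, 639 and 213 FPKM in K10-spastin 1, 2 and 3, against 21.2, 24.0 and 21.4 FPKM in control 1, 2 and 3, a log2 change of 4.65 ± 0.60 (SE; limma adjusted p = 0.00865). It was highest in K10-spastin 1 and lowest in K10-spastin 3. Log2 changes here are differences of log2(FPKM + 1), K10-spastin minus control, with their SE; the pseudocount of 1 FPKM understates the change of low genes. A gene rose or fell where limma's adjusted p over the 11071 tested genes, those with a mean of at least 1 FPKM, was under 0.05.

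The comparison asks how early and late envelope transcripts stand in suprabasal cells with induced spastin. Of the 40 genes, 37 were tested and 11 rose, where 5.14% of all 11071 tested genes did. They were the early genes Tgm1 and Ivl, 4 Lce genes (Lce1f, Lce3c, Lce3d and Lce3e), the S100-fused gene Rptn, and Asprv1, Crct1, Cnfn and Cdsn. None of the 37 fell by limma, where 5.9% of all tested genes did. Evpl alone was lower at an unadjusted limma p under 0.05. The median log2 change of all 40 genes was 2.67, also with the 2 genes that were listed at 0 in every control (Lce3b and Lce3d) set to a floor of 3 fragments in each control library, and that of all 20977 genes above 0 in any library was -0.03. By class, the median was -0.08 for the 6 early genes, 3.90 for Lce1, 2.74 for Lce3, 2.62 for Lce6a, 0.75 for the S100-fused genes and 2.57 for the other late genes. All 3 K10-spastin libraries lay above all 3 controls in 26 of the 40 genes, as in 9.97% of genes above 0 in any library. They lay below in 2, Evpl and Ppl, where 19.4% of such genes did, and the groups overlapped in 12. Of the 37 tested genes, 5 (Lce1j, Lce1k, Lce3a, Lce3d and Rptn) averaged under 1 FPKM in control and passed the filter through their K10-spastin levels. The 3 genes not tested were Lce3b, Tchhl1 and Tgm5. The table holds bulk cells, so fewer cells of a type and less RNA per cell cannot be told apart.

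Large changes often did not pass the test in these genes. A log2 change of at least 2 was found in 23 of the 37 tested genes, against 1.8% of all tested genes, and 13 of these 23 were not called. Among the 23 are Lce1j, Lce1k, Lce3d and Rptn, which passed the filter through their K10-spastin levels. The change of Lce3d, listed at 0 in every control, rests on the pseudocount. Leaving out any one control left 7, 7 and 5 genes called without control 1, 2 and 3, where 1.98%, 1.28% and 1.02% of all genes rose. Without K10-spastin 1, 22 genes rose (6.24% of all genes), 11 of them Lce1 genes that had not passed. Without K10-spastin 2 or 3, 8 and 11 rose (3.25% and 6.01% of all genes). With no filter 6 rose (1.52% of all genes), and with limma's array weights, which give each library a weight of its own, 26 rose (13.9% of all genes) and 2, Evpl and Tchh, fell (16% of all genes). Lce3c, Lce3d, Rptn and Asprv1 were called in each of the 17 alternatives run.

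**Figure D1:**
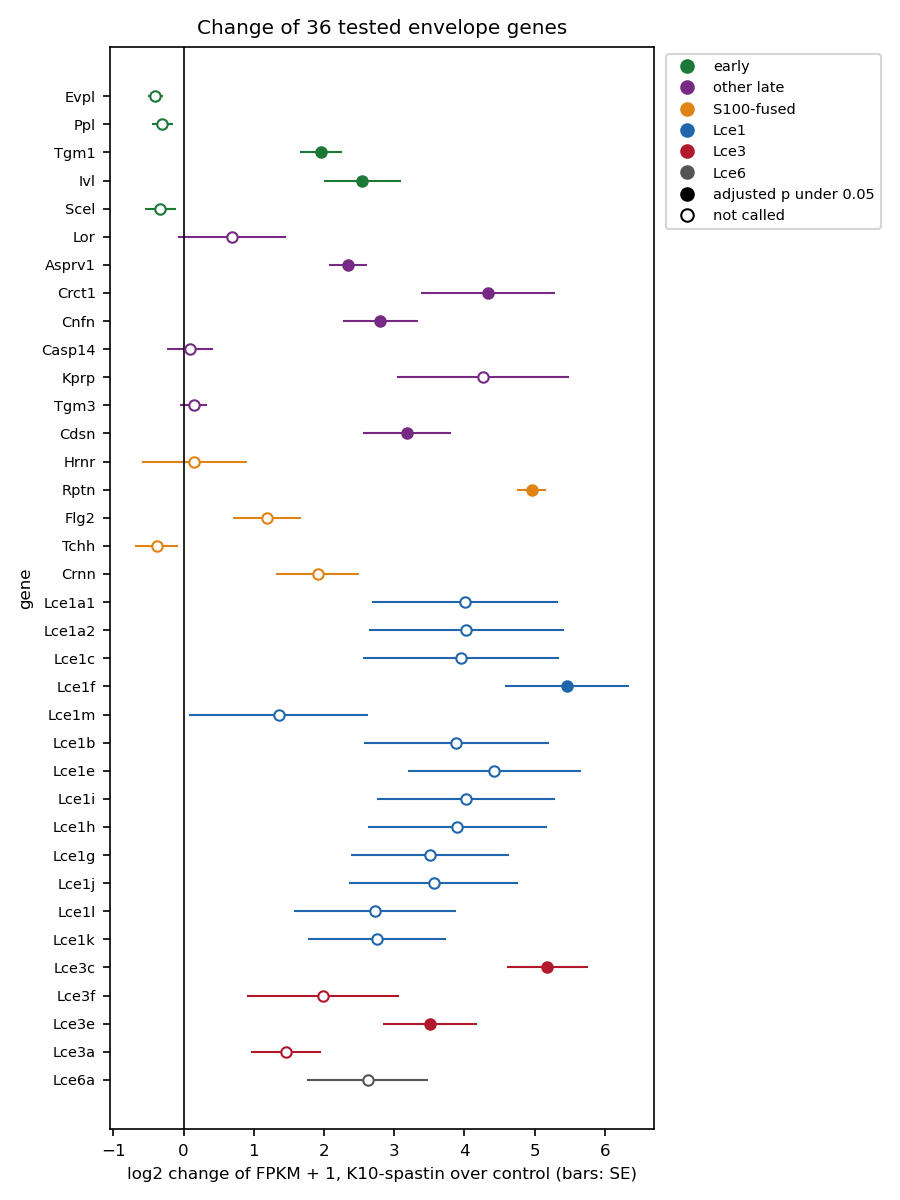
Log2 change of FPKM + 1, K10-spastin over control, for the tested envelope genes other than Lce3d, which was listed at 0 in every control. Points are limma estimates from 3 against 3 libraries, bars are SE, colours are classes and filled points passed an adjusted p of 0.05. Rptn stands at 4.96 with an SE of 0.21, while 12 of 13 Lce1 genes have changes of 2.72 to 5.46 with SEs of 0.88 to 1.40, and Evpl, Ppl, Scel and Tchh lie left of 0.

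The sequences upstream of 6 of these genes are shown because Lce1 and Lce3 genes varied together within their own group, as described further on, while Rptn and Ivl, in the same gene complex, had K10-spastin 1 as their highest library. Lor had the library order of the Lce1 genes, with groups that overlapped. They are the 250 bases before the annotated start, 5′ to 3′ on the gene's strand, from RefSeq on GRCm38.p6, whose table held 35 of the 40 genes. Their positions on chromosome 3 are chr3:92709075-92709324 (minus strand) for Lce1e, chr3:92944236-92944485 (plus) for Lce3c, chr3:92957140-92957389 (plus) for Lce3d, chr3:93393449-93393698 (plus) for Rptn, chr3:92573736-92573985 (minus) for Ivl and chr3:92083143-92083392 (minus) for Lor. Capitals mark the blocks CAGAATAAAA (Lce1e) and AGGATAAAAG (Lce3c, Lce3d), the overlapping motif ATAAAAG, and the motif TGANTCA (Rptn, Ivl, Lor).
Lce1e: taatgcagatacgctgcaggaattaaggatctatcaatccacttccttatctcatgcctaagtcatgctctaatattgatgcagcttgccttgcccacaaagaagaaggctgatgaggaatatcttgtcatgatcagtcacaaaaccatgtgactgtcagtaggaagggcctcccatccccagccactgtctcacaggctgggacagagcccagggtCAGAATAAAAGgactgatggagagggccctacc
Lce3c: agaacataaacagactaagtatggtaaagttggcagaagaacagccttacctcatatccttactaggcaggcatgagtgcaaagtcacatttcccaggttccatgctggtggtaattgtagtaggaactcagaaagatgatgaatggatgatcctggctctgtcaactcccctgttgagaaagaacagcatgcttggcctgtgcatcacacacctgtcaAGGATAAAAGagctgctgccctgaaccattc
Lce3d: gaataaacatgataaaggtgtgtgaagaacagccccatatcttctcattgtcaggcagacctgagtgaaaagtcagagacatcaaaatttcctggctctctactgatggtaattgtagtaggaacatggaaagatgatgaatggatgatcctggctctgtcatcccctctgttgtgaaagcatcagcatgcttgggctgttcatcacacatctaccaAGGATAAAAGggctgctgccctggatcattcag
Rptn: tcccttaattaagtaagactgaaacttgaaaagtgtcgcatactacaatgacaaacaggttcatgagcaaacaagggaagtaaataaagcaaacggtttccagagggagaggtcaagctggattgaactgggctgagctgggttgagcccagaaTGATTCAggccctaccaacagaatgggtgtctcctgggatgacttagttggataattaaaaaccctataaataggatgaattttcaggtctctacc
Ivl: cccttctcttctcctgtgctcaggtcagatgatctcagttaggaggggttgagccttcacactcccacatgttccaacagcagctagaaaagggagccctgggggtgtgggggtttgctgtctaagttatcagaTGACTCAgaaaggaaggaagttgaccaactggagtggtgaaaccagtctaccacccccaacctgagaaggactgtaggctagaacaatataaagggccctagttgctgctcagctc
Lor: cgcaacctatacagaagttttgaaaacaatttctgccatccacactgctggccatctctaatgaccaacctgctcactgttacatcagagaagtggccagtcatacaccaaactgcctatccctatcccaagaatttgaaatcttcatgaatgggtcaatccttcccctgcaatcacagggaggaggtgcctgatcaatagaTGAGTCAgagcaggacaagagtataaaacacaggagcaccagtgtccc
ATAAAAG is a form of the TATA box. TGACTCA, which reads TGAGTCA on the other strand, is the site of AP-1, a family of dimeric factors known to act on the involucrin and loricrin genes, and TGANTCA is that site with any base at its centre. Both strands were searched over 250 bases before and 50 after the start. ATAAAAG was found in 9 of 12 Lce1 promoters, in 5 of 6 Lce3 promoters and in that of Crnn, against 5.42% of all 32851 promoters in the table. TGANTCA was found in none of the 12 Lce1 and 6 Lce3 promoters and in 7 of the 35 (Crnn, Flg2, Rptn, Tchhl1, Lor, Ivl and Scel), against 7.81% of all promoters. The AP-1 site itself was in 3 of these (Ivl, Scel and Lor), against 5.2% of all promoters, and the matches of Rptn, Crnn, Flg2 and Tchhl1 have A or T at the centre. The 10-letter blocks were picked as those most shared within each group after the sequences were seen. CAGAATAAAA was in 9 of 12 Lce1 promoters and 0.146% of all, and AGGATAAAAG in 5 of 6 Lce3 promoters and 0.0944% of all. Most Lce1 genes have near copies among themselves, and so do the Lce3 genes, so shared letters are a description of related sequences. A match is not evidence of binding, and its part in the values was not tested.

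Among the early envelope genes, the cross-linking enzyme and the first scaffold protein rose, and the other scaffold genes did not. Tgm1 (ENSMUSG00000022218), the membrane-bound transglutaminase that starts envelope assembly, was at 403, 255 and 183 FPKM in K10-spastin 1, 2 and 3, against 53.6, 80.5 and 71.7 FPKM in control 1, 2 and 3. Every K10-spastin library lay above every control, with K10-spastin 1 the highest. The log2 change was 1.96 ± 0.29 (limma adjusted p = 0.0126; 0.0597 without control 3, the only alternative in which Tgm1 was not called). Gm49067, which overlaps Tgm1 on the other strand, was not in the table, and its reads cannot be told apart from those of Tgm1 without strand. Ivl (ENSMUSG00000049128), involucrin, was at 405, 192 and 113 FPKM in K10-spastin 1, 2 and 3 and at 18.4, 63.3 and 35.1 FPKM in control 1, 2 and 3. The groups did not overlap, and the order within K10-spastin was that of Tgm1. Its log2 change of 2.54 ± 0.55 passed the test (limma adjusted p = 0.0321), but not without any one library other than K10-spastin 3 (adjusted p 0.0523 to 0.108), nor with no filter (0.0695).

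Evpl and Ppl, the plakins that tie the envelope to desmosomes and keratin filaments, were the only 2 of the 40 genes whose K10-spastin libraries all lay below the controls. Evpl (ENSMUSG00000034282) was at 200, 201 and 217 FPKM in K10-spastin 1, 2 and 3, against 282, 282 and 253 FPKM in control 1, 2 and 3, a log2 change of -0.40 ± 0.11 (limma adjusted p = 0.0594). It fell under quantile normalization (-0.52, adjusted p = 0.0232), where 8.02% of all genes fell, and with array weights (-0.35, adjusted p = 0.0237). Ppl (ENSMUSG00000039457) was at 143, 172 and 206 FPKM in K10-spastin 1, 2 and 3, against 214, 215 and 208 FPKM in control 1, 2 and 3 (log2 change -0.31 ± 0.15; limma adjusted p = 0.211). K10-spastin 3 was close to the lowest control. The ratio of Evpl to Ppl was 1.39, 1.17 and 1.05 in K10-spastin 1, 2 and 3 and 1.31, 1.31 and 1.22 in control 1, 2 and 3, with groups that overlapped. Scel, sciellin, ranged from 18.6 to 25.1 FPKM in K10-spastin and from 21.9 to 36.5 FPKM in control (limma adjusted p = 0.338). Tgm5, another transglutaminase, was at 2.71, 0.211 and 0.535 FPKM in K10-spastin 1, 2 and 3 and at 1.10, 0.29 and 0.842 FPKM in control 1, 2 and 3, under the mean level that was tested.

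Of the 6 Lce3 genes, 3 of the 5 tested rose, where 5.14% of all tested genes did. Lce3a and Lce3d passed the filter through their K10-spastin levels. Lce3c (ENSMUSG00000045475) was at 69.6, 91.2 and 152 FPKM in K10-spastin 1, 2 and 3, against 0.158, 2.10 and 4.82 FPKM in control 1, 2 and 3. The lowest K10-spastin library stood far above the highest control. Its log2 change was 5.18 ± 0.57 (limma adjusted p = 0.00546). Lce3d (ENSMUSG00000043472) was at 6.69, 20.3 and 26.4 FPKM in K10-spastin 1, 2 and 3 and was listed at 0 in each control, so no fold is given (limma adjusted p = 0.00546; 0.0334 at most over the alternatives). Lce3b, a weaker gene that was not tested, was also listed at 0 in each control and was at 0.205, 1.63 and 2.25 FPKM in K10-spastin 1, 2 and 3. These were the only 2 of the 40 genes at 0 in all controls. Lce3e (ENSMUSG00000074433) was at 6.46, 28.7 and 39.6 FPKM in K10-spastin 1, 2 and 3, against 0, 1.13 and 1.89 FPKM in control 1, 2 and 3. The groups did not overlap, and the log2 change was 3.50 ± 0.67 (limma adjusted p = 0.0225). That call was lost without any one control or K10-spastin 2 (adjusted p 0.0608 to 0.0732) and with no filter (0.0543).

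The other Lce3 genes were not called. Lce3a was at 0.212, 3.94 and 2.85 FPKM in K10-spastin 1, 2 and 3, against 0, 0 and 0.111 FPKM in control 1, 2 and 3 (limma adjusted p = 0.0948; 0.00247 to 0.222 over the 16 alternatives in which it was tested). It was called with array weights, without K10-spastin 1, and without control 1 and K10-spastin 1 together. Lce3f, the Lce3 gene of highest control level, was at 8.60, 31.2 and 68.5 FPKM in K10-spastin 1, 2 and 3 and at 0.365, 13.4 and 16.6 FPKM in control 1, 2 and 3. Its K10-spastin 1 value fell within the control range, and its log2 change of 1.98 ± 1.08 did not pass (limma adjusted p = 0.252; log2 change 0.80 without control 1). The summed FPKM of the 6 genes was 91.8, 177 and 292 in K10-spastin 1, 2 and 3, against 0.522, 16.7 and 23.5 in control 1, 2 and 3. All 6 Lce3 genes have a transcript copy with at least 90% identity over at least 200 bases, so reads may be split between them, and the sum is less exposed to this than any single gene.

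The 13 Lce1 genes were higher in K10-spastin, and 1 of them passed the test, where 5.14% of all tested genes rose. Their class median was the largest with the pseudocount of 1 FPKM, an order that depends on it. With a pseudocount of 0.1, the middle tested Lce3 gene, Lce3e, was at 4.97 and the middle Lce1 gene, Lce1b, at 4.63. Lce1f (ENSMUSG00000042124) was at 43.0, 93.0 and 458 FPKM in K10-spastin 1, 2 and 3, against 0.183, 3.95 and 2.82 FPKM in control 1, 2 and 3. All K10-spastin libraries stood well above all controls, and K10-spastin 3 was the highest by far. The log2 change was 5.46 ± 0.88 (limma adjusted p = 0.0154; 0.0615 without control 3, the only alternative that ended the call). Lce1a1 (ENSMUSG00000057609), the Lce1 gene of highest level, was at 23.9, 156 and 1047 FPKM in K10-spastin 1, 2 and 3, against 2.01, 20.03 and 14.4 FPKM in control 1, 2 and 3. K10-spastin 1 was barely above the highest control, and K10-spastin 3 was far above it. The log2 change of 4.01 ± 1.32 was not called (limma adjusted p = 0.0888). Lce1a2 followed it closely, at 22.2, 134 and 1013 FPKM in K10-spastin 1, 2 and 3 and 1.34, 22.1 and 12.6 FPKM in control 1, 2 and 3 (log2 change 4.03 ± 1.39; limma adjusted p = 0.0974).

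The other Lce1 genes repeated this graded pattern. In 10 of the 13, all but Lce1f, Lce1k and Lce1m, the level was 1.3 to 4.14 times the control mean in K10-spastin 1, 7.92 to 37.1 times in K10-spastin 2 and 72.2 to 301 times in K10-spastin 3. K10-spastin 3 was the highest library in 13 of 13 Lce1 genes, with the order K10-spastin 3, 2, 1 in all 13, against 31.6% and 23.9% of all tested genes. Control 1 was the lowest library of its group in all 13, against 32% of all tested genes. Of the 12 Lce1 genes that were not called, 11 had log2 changes of 2.72 to 4.42 with SEs of 0.98 to 1.4 (limma adjusted p 0.0603 to 0.157). Those 11 were called without K10-spastin 1, with changes of 3.8 to 5.83 (limma adjusted p 0.015 to 0.0467). Lce1m, which lies apart from the others in the gene order, was at 16.4, 31.5 and 365 FPKM in K10-spastin 1, 2 and 3, against 4.26, 46.0 and 48.9 FPKM in control 1, 2 and 3. It was above the controls in K10-spastin 3 alone (limma adjusted p = 0.505). The summed FPKM of the 13 genes was 144, 706 and 5004.4 in K10-spastin 1, 2 and 3 and 9.91, 125 and 96.1 in control 1, 2 and 3. Of the Lce1 genes, 11 have a near copy by the measure used for Lce3, so single values may share reads.

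Lce6a (ENSMUSG00000086848), the lone gene of its group, was at 18.2, 15.7 and 119 FPKM in K10-spastin 1, 2 and 3, against 1.11, 7.13 and 8.59 FPKM in control 1, 2 and 3. The groups did not overlap, and the log2 change of 2.62 ± 0.86 was not called (limma adjusted p = 0.0875). Within a library, the balance between the Lce groups also varied. Lce3 genes made up 36.1%, 19.7% and 5.38% of the summed FPKM of all 20 Lce genes in K10-spastin 1, 2 and 3, and 4.52%, 11.2% and 18.3% in control 1, 2 and 3. K10-spastin 1 and 2 lay above all controls in this share, and K10-spastin 3 lay between control 1 and control 2. The ratio of Lce3c to Lce1a1 was 2.91, 0.587 and 0.145 in K10-spastin 1, 2 and 3, against 0.0785, 0.105 and 0.334 in control 1, 2 and 3. K10-spastin 1 and 2 again exceeded all controls, and K10-spastin 3 lay within their range.

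**Figure D2:**
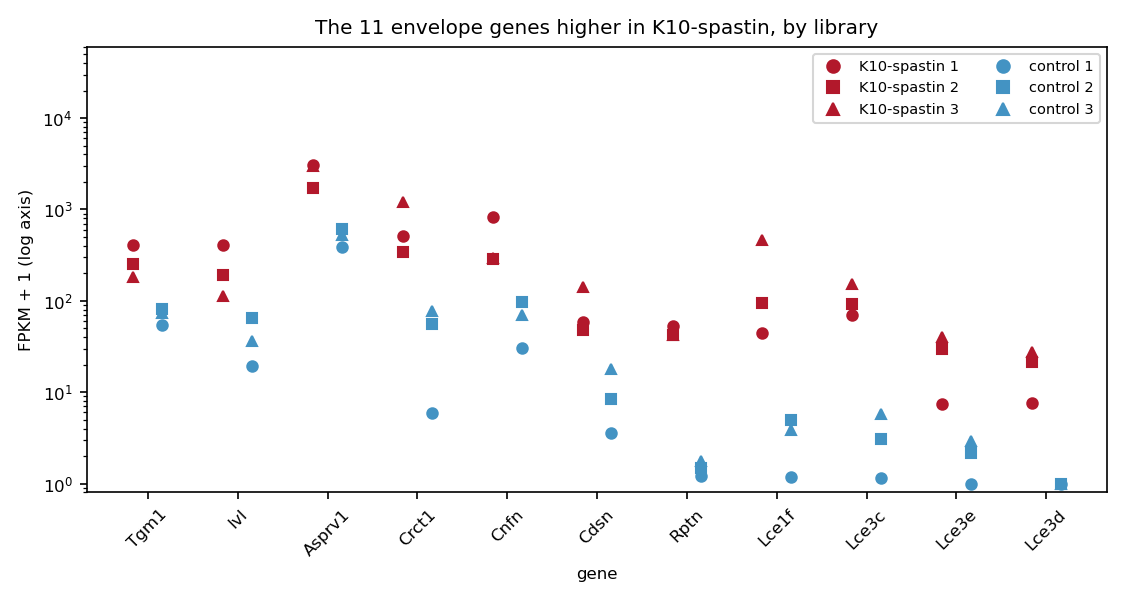
FPKM + 1 on a log axis in each library for the 11 envelope genes that rose, K10-spastin libraries in red and control libraries in blue, with the marker shape giving the replicate. Every red point lies above every blue point of the same gene. Rptn has the tightest red points, at 41.0 to 51.8 FPKM, and Lce1f the widest, at 43.0 to 458 FPKM.

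Among the S100-fused genes, Rptn rose and the others did not pass. Rptn (ENSMUSG00000041984), repetin, was at 51.8, 41.0 and 41.7 FPKM in K10-spastin 1, 2 and 3, against 0.204, 0.497 and 0.758 FPKM in control 1, 2 and 3. Its 3 K10-spastin values lay within 1.26 times of each other, where the median such spread over all 40 genes was 7.54 times and that over all tested genes was 1.55 times. The log2 change of 4.96 ± 0.21 had the smallest limma adjusted p of the 40 genes (1.23e-04; 0.00306 at most over the alternatives). Rptn averaged 0.486 FPKM in control and passed the filter through its K10-spastin levels. The size of its change depends on the pseudocount (6.38 with 0.1). In annotated order, Rptn lies in a stretch with Hrnr before it and Tchh after it, and neither passed. Hrnr, hornerin, was at 28.2, 23.2 and 136 FPKM in K10-spastin 1, 2 and 3 and at 16.9, 59.7 and 64.1 FPKM in control 1, 2 and 3, with groups that overlapped (log2 change 0.15 ± 0.75; limma adjusted p = 0.912). Tchh, trichohyalin, which is best known from the inner root sheath of hair, was at 12.0, 7.56 and 4.47 FPKM in K10-spastin 1, 2 and 3 and at 9.81, 9.59 and 10.8 FPKM in control 1, 2 and 3 (log2 change -0.39 ± 0.31; limma adjusted p = 0.426). An overlapping gene on the strand of Rptn, Gm37857, was not in the table, and reads from it may be counted with Rptn.

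Crnn (ENSMUSG00000078657), cornulin, which is abundant in the oesophagus, was at 16.6, 9.45 and 1.91 FPKM in K10-spastin 1, 2 and 3, against 1.23, 1.04 and 1.22 FPKM in control 1, 2 and 3. The groups did not overlap, with K10-spastin 3 the nearest to the controls, and the log2 change of 1.91 ± 0.59 was not called (limma adjusted p = 0.0782). Crnn was called only without K10-spastin 3 (2.65, adjusted p = 0.00465). Flg2, which resembles filaggrin, was at 9.11, 10.7 and 27.7 FPKM in K10-spastin 1, 2 and 3 and at 2.86, 6.15 and 9.48 FPKM in control 1, 2 and 3 (log2 change 1.19 ± 0.49; limma adjusted p = 0.147). Tchhl1 was at 0.558, 0.0742 and 0.195 FPKM in K10-spastin 1, 2 and 3, against 0.0215, 0 and 0 FPKM in control 1, 2 and 3, and was too low to be tested.

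Of the 8 other late genes, 4 rose, where 5.14% of all tested genes did. Asprv1 (ENSMUSG00000033508), the aspartic protease that cuts profilaggrin, was at 3082.7, 1733.7 and 2991.6 FPKM in K10-spastin 1, 2 and 3, against 384, 606 and 526 FPKM in control 1, 2 and 3. It was the gene of second highest level in both groups, and the groups stood far apart (log2 change 2.34 ± 0.27; limma adjusted p = 0.006; 0.034 at most over the alternatives). Crct1 (ENSMUSG00000027913), a small cysteine-rich protein gene beside the Lce genes, was at 505, 341 and 1205.2 FPKM in K10-spastin 1, 2 and 3, against 4.91, 55.0 and 75.4 FPKM in control 1, 2 and 3. Control 1 was far below the other controls. The log2 change of 4.34 ± 0.95 passed (limma adjusted p = 0.0336), but not without any one library other than control 1 (adjusted p 0.0567 to 0.0734), nor with no filter (0.0721).

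Cnfn (ENSMUSG00000063651), cornifelin, was at 827, 285 and 296 FPKM in K10-spastin 1, 2 and 3, against 29.2, 97.2 and 68.7 FPKM in control 1, 2 and 3. The groups did not overlap, with K10-spastin 1 the highest (log2 change 2.80 ± 0.54; limma adjusted p = 0.0227; 0.0565 without control 1, 0.0797 without control 3 and 0.054 with no filter). Cdsn (ENSMUSG00000039518), corneodesmosin, which holds cornified cells together, was at 57.3, 47.3 and 142 FPKM in K10-spastin 1, 2 and 3, against 2.57, 7.35 and 17.0 FPKM in control 1, 2 and 3. Here K10-spastin 3 was the highest and the groups again did not overlap (log2 change 3.18 ± 0.63; limma adjusted p = 0.0243; 0.0565 without control 1, 0.08 without control 2 and 0.0566 with no filter).

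Lor (ENSMUSG00000043165), loricrin, the main protein of the mature envelope, had the highest level of the 40 genes in both groups and did not pass. It was at 2772, 3007 and 14562 FPKM in K10-spastin 1, 2 and 3, against 1205, 5188 and 4608 FPKM in control 1, 2 and 3. The groups overlapped, and K10-spastin 3 alone exceeded all controls (log2 change 0.69 ± 0.77; limma adjusted p = 0.583; -0.09 without K10-spastin 3). Lor made up 30.7%, 40.5% and 55.7% of the summed FPKM of the 40 genes in K10-spastin 1, 2 and 3, against 50.2%, 73.9% and 73.9% in control 1, 2 and 3, shares that overlapped between the groups. Kprp, keratinocyte proline-rich protein, was at 12.3, 71.2 and 431 FPKM in K10-spastin 1, 2 and 3, against 0.342, 6.23 and 5.05 FPKM in control 1, 2 and 3. It lies among the Lce1 genes in the gene order and had their graded pattern, with a log2 change of 4.26 ± 1.22 (limma adjusted p = 0.0635; 0.0268 without K10-spastin 1). Tgm3, the soluble transglutaminase of late assembly, ranged from 41.8 to 67.6 FPKM in K10-spastin and from 42.3 to 48.9 FPKM in control (limma adjusted p = 0.654). Casp14, the caspase that takes part in filaggrin breakdown, ranged from 62.3 to 170 FPKM in K10-spastin and from 87.1 to 104 FPKM in control (limma adjusted p = 0.885).

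**Figure D3:**
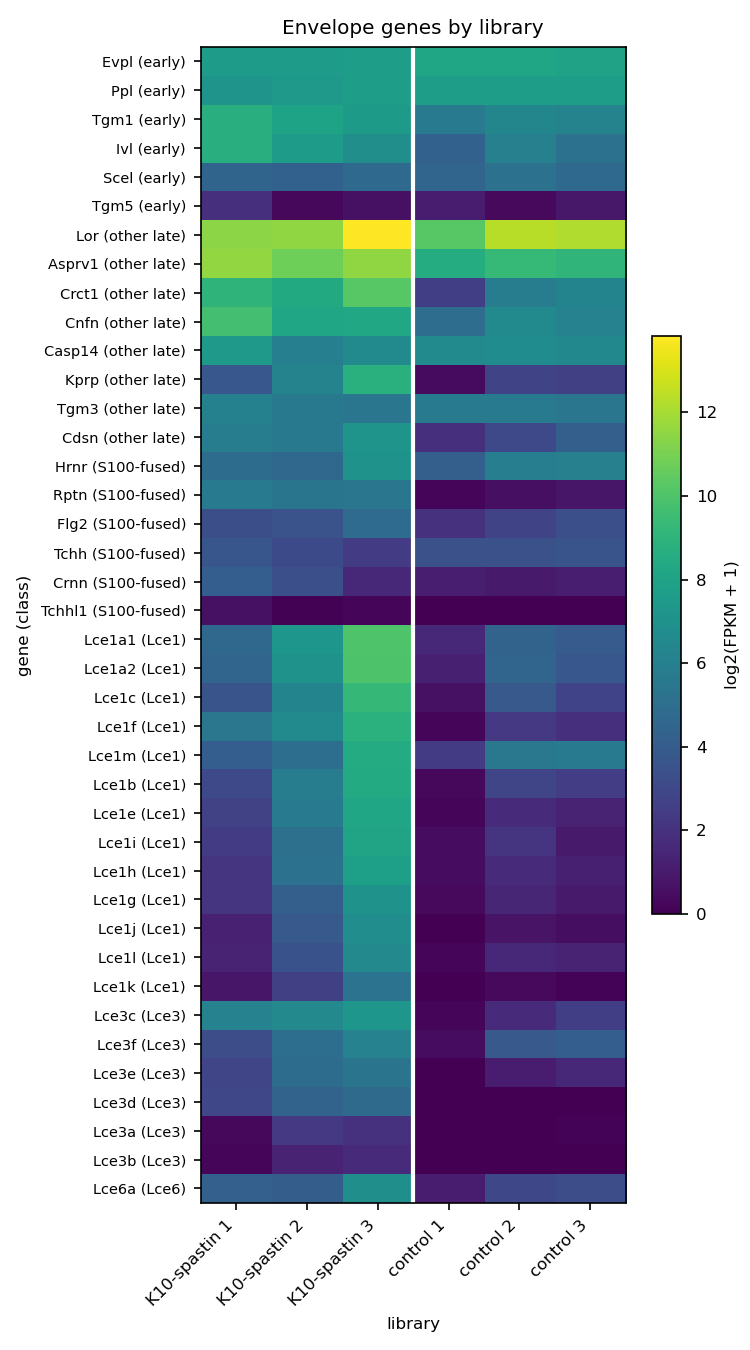
Log2(FPKM + 1) of all 40 genes (rows, by class and then by mean level) in the 6 libraries (columns), K10-spastin on the left of the white line and control on the right. Lor has the highest level in all 6 libraries except K10-spastin 1, where Asprv1 exceeds it. Most Lce rows brighten across K10-spastin 1, 2 and 3 and are darkest in control 1.

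The mean level of the early and late genes was read in each library. The mean log2(FPKM + 1) of the 6 early genes was 6.42, 5.88 and 5.86 in K10-spastin 1, 2 and 3, against 5.26, 5.64 and 5.44 in control 1, 2 and 3. That of the 34 late genes was 4.28, 5.27 and 6.83 in K10-spastin 1, 2 and 3, against 1.81, 3.20 and 3.11 in control 1, 2 and 3. For both means every K10-spastin library lay above every control, with K10-spastin 1 highest for the early and K10-spastin 3 highest for the late genes. The early mean did not stand for its members, since Tgm1 and Ivl rose while the other 3 tested early genes had negative changes and a median over the 5 tested of -0.31. K10-spastin 1 was highest in 3 of the 6 early genes (Tgm1, Ivl and Tgm5) and K10-spastin 3 in the other 3 (Evpl, Ppl and Scel). Among the 14 late genes outside the Lce group, K10-spastin 1 was highest in 8 and K10-spastin 3 in 6. The late mean minus the early mean was -2.14, -0.61 and 0.98 in K10-spastin 1, 2 and 3, against -3.44, -2.44 and -2.33 in control 1, 2 and 3. It was above 0 in K10-spastin 3 alone, and the groups did not overlap, with K10-spastin 1 close to the highest control. The median log2 change of the late genes minus that of the early ones was 3.65 over tested genes and 2.94 to 4.56 over the alternatives. The tested late genes include 5 that passed the filter through their K10-spastin levels, and with no filter the difference was 3.07. Outside the Lce group, the median of the late genes was 1.91 over tested genes and 1.55 over all found. Of the tested genes, 2 of 5 early and 9 of 32 late ones rose, where 5.14% of all tested genes did. No test is given for the difference between the classes, since the genes were chosen with earlier results of these libraries known.

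Genes outside the Lce group also split by which K10-spastin library was highest. K10-spastin 3 was highest in 28 of the 40 genes, against 31.6% of all tested genes, among them 19 of the 20 Lce genes. K10-spastin 1 was highest in 11, against 19.9% of all tested genes, and these included Ivl, Tgm1, Cnfn, Rptn, Asprv1 and Crnn. Levels fell in the order K10-spastin 1, 2, 3, that of Spast, in 5 of the 40 genes (11.2% of all tested genes). The other order, 3, 2, 1, was that of 23 of the 40 (23.9% of all tested genes). The ratio of Ivl to Lor, an early to a late scaffold protein, was 0.146, 0.064 and 0.00775 in K10-spastin 1, 2 and 3 and 0.0153, 0.0122 and 0.00761 in control 1, 2 and 3. K10-spastin 1 and 2 exceeded all controls in this ratio, and K10-spastin 3 did not. The labels give no batch or day by which these libraries could be split, and the part of such differences was not tested.

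**Figure D4:**
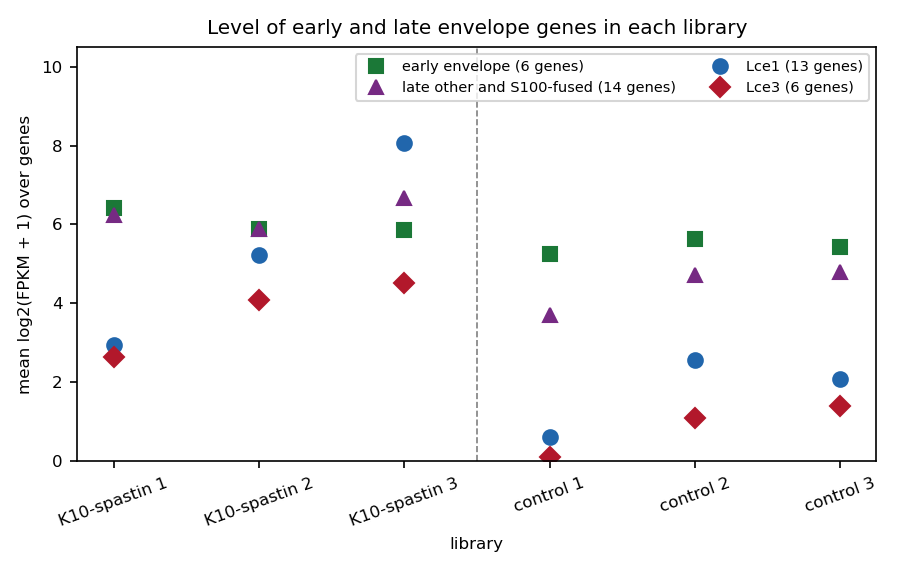
Mean log2(FPKM + 1) over the early genes (6), the late genes other than Lce (14), the Lce1 genes (13) and the Lce3 genes (6) in each library, K10-spastin left of the dashed line and control right of it. The early mean stays between 5.26 and 6.42, while the Lce1 mean goes through 2.94, 5.23 and 8.07 in K10-spastin 1, 2 and 3 and 0.62, 2.56 and 2.08 in control 1, 2 and 3.

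Along chromosome 3, the change differed between neighbouring genes of the complex. Lor and Ivl, which lie at one end of the 30 genes, had log2 changes of 0.69 and 2.54. The run from Lce6a through the Lce1 genes and Kprp to Lce1l held changes of 2.62 to 5.46, with K10-spastin 3 the highest library in each. The Lce3 genes that follow were between 1.46 (Lce3a) and 5.18 (Lce3c) among those tested with any reads in control. Lce3a had 1 fragment in control 3 and 0 in control 1 and 2, so its 1.46 rests on the pseudocount. With a pseudocount of 0.1, Lce3a was at 3.59 and Lce3f at 2.49. Crct1 beside the Lce3 genes had 4.34, and Lce1m, which lies between Crct1 and Crnn, had 1.35 (0.04 without K10-spastin 3 and 0.29 without control 1). The S100-fused genes at the other end ranged from -0.39 (Tchh) to 4.96 (Rptn). Genes that rose thus stood next to genes that did not pass, such as Rptn between Hrnr and Tchh. Of the 10 genes on other chromosomes, Tgm1, Asprv1, Cnfn and Cdsn rose.

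**Figure D5:**
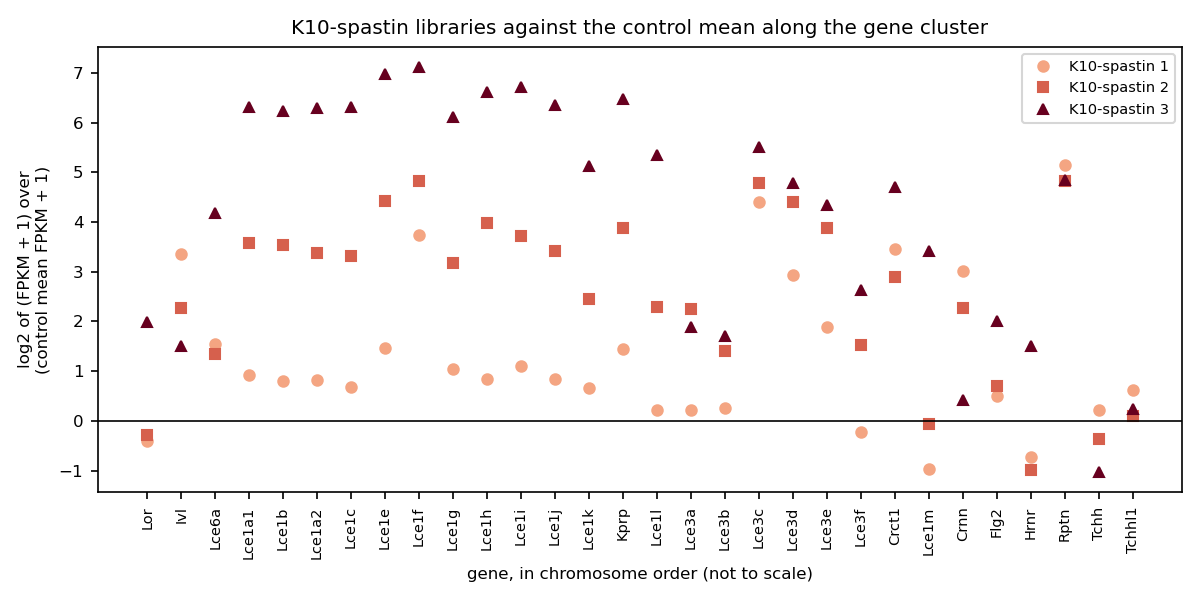
Log2 of FPKM + 1 in each K10-spastin library over the control mean (+ 1) for the 30 genes on chromosome 3, in chromosome order and not to scale. The 3 libraries lie far apart across the Lce1 genes and Kprp, with K10-spastin 3 on top, and close together at Rptn, while Ivl and Crnn have K10-spastin 1 on top.

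Other genes of the same pathway were counted in the same fit. Of 20 enzymes and inhibitors that process envelope and filaggrin-type proteins, 16 were tested, 9 rose and none fell (by limma, also none at an unadjusted p under 0.05), where 5.14% of all tested genes rose and 5.9% fell. Their median log2 change was 1.09, against -0.09 for all tested genes. The numbers that rose were 3, 4 and 3 without control 1, 2 and 3, where 1.98%, 1.28% and 1.02% of all tested genes rose. Klk7, a protease that cuts corneodesmosin, was at 1008, 305 and 319 FPKM in K10-spastin 1, 2 and 3, against 7.11, 13.6 and 15.9 FPKM in control 1, 2 and 3 (log2 change 5.20 ± 0.49; limma adjusted p = 0.00418). Ctsl, a lysosomal protease that processes transglutaminase 3, was at 100, 65.6 and 113 FPKM in K10-spastin 1, 2 and 3, against 7.26, 11.3 and 11.9 FPKM in control 1, 2 and 3 (3.06 ± 0.26; limma adjusted p = 0.00384). Both were called in every alternative, with groups far apart. Ctsd, the aspartic protease that activates transglutaminase 1, rose by 1.62 ± 0.21 (limma adjusted p = 0.00867). Blmh, which breaks filaggrin down to amino acids, rose by 1.24 ± 0.29 (limma adjusted p = 0.0408), a call that 9 of the alternatives ended, both scalings and each control left out among them. The inhibitors Spink5 (2.95 ± 0.54, limma adjusted p = 0.0201) and Cst6 (1.04 ± 0.25, limma adjusted p = 0.0442) also rose. The inhibitors Csta1 (1.24 ± 0.40, limma adjusted p = 0.0837) and Spint1 (0.30 ± 0.19, limma adjusted p = 0.321) were not called.

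Of 24 transcription regulators of late differentiation, 4 rose and none fell by limma, where 5.14% of all tested genes rose and 5.9% fell. At an unadjusted p under 0.05, 7 of the 24 were higher and 5 lower, against 1421 and 2065 of all 11071, and the median log2 change of -0.11 was near the -0.09 of all tested genes. With 1 K10-spastin library left out, 2 rose where it was K10-spastin 1 or 2 and 5 where it was K10-spastin 3. Of all tested genes, 6.24%, 3.25% and 6.01% rose without K10-spastin 1, 2 and 3. With 1 control left out, 2 rose where it was control 1 or 2 and 1 where it was control 3. Of all tested genes, 1.98%, 1.28% and 1.02% rose without control 1, 2 and 3. The number of regulators that rose was also 2 under both scalings, with a pseudocount of 0.1, with no filter, with a filter at 5 FPKM and with no trend. Over all genes, 721 and 607 rose under median-of-ratios and quantile scaling. The pseudocount of 0.1, no filter, the filter at 5 FPKM and no trend gave 554, 319, 471 and 507. Under median-of-ratios and quantile scaling 2 and 4 regulators fell, where 757 and 888 of all 11071 genes did. With array weights 6 fell, where 16% of all tested genes did. Ehf, an epithelial ETS factor, was at 23.3, 21.6 and 27.7 FPKM in K10-spastin 1, 2 and 3, against 1.34, 3.70 and 3.35 FPKM in control 1, 2 and 3 (log2 change 2.79 ± 0.29; limma adjusted p = 0.0048). Hopx, a homeodomain protein without DNA binding, rose by 3.08 ± 0.54 (limma adjusted p = 0.0178; 0.0662 without control 3). Klf4, which is needed for the skin barrier in mice, had a change of -0.04 ± 0.16 and Cebpa one of 0.26 ± 0.13 (limma adjusted p = 0.906 and 0.227); that of Klf4 was positive in 3 alternatives, both scalings among them. Of 8 targets of Nrf2, a stress-activated factor that raises some envelope genes in mice, 2 rose and none fell by limma, against the same 5.14% and 5.9% of all tested genes (3 higher and 1 lower at an unadjusted p under 0.05; median 0.59). They were Srxn1 (2.74 ± 0.28; adjusted p = 0.00469) and Nqo1 (1.24 ± 0.19; adjusted p = 0.0129), which was not called without control 2 or 3. Hmox1 had a change of 0.84 ± 0.32 (adjusted p = 0.118).

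Genes of the spinous layer, through which cells pass before the envelope forms, were counted in the same way. Of 7 such genes 6 were tested, none rose and 1 fell, where 5.14% and 5.9% of all tested genes did (1 higher and 2 lower at an unadjusted p under 0.05 by limma; median -0.24). Krt10, whose promoter drives the activator, was at 16977, 13075 and 17318 FPKM in K10-spastin 1, 2 and 3, against 32513, 23698 and 26802 FPKM in control 1, 2 and 3. Its log2 change was -0.81 ± 0.20 (limma adjusted p = 0.0438), a call lost with no filter (-0.81, adjusted p = 0.353), under median-of-ratios scaling (-0.70, 0.0747) and without any one library other than K10-spastin 1 (-0.91 to -0.68). Under quantile normalization the change itself was -0.07 (adjusted p = 0.783). Its partner Krt1 had a change of -0.69 ± 0.22 (adjusted p = 0.0838). These 2 keratins, which define suprabasal cells, were abundant in all 6 libraries.

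Markers of other cells that skin or the sort could hold were read as summed FPKM in each library. Basal markers summed to 2495.3 to 4722.8 FPKM in K10-spastin and 4083.2 to 7170.9 FPKM in control, and 1 of 6, Krt15, fell. Periderm markers, mostly Sfn, summed to 2098.1 to 3825.4 FPKM in K10-spastin and 1769.3 to 2327.0 FPKM in control, and Krt13 fell. Sfn had a log2 change of 0.45 ± 0.23 (limma adjusted p = 0.228), so the sum did not stand for its members. The tested keratins of this list all had negative changes, Krt13 of -2.81, Krt4 of -1.57, Krt19 of -1.23 and Krt8 of -0.61. Of these, only Krt13 was called. Hair placode markers summed to 21.5 to 55.9 FPKM in K10-spastin and 6.4 to 31.1 FPKM in control, and their members moved apart. Sox9, which made up most of that sum, was at 55.8, 42.0 and 21.3 FPKM in K10-spastin 1, 2 and 3, against 4.58, 15.8 and 22.2 FPKM in control 1, 2 and 3 (log2 change 1.55 ± 0.56; limma adjusted p = 0.11), whereas Lhx2 fell (-1.74 ± 0.43; limma adjusted p = 0.045). The basal, periderm and placode sums overlapped between the groups. Fibroblast markers summed to 0.791 to 3.03 FPKM in K10-spastin and 6.44 to 42.3 FPKM in control, and Dcn fell. Here the groups did not overlap, and control 1 was the lowest control. Control 1 was also the lowest control in every other marker sum except the basal one. It was so in 29 of the 40 envelope genes, against 32% of all tested genes. Melanocyte markers summed to 1.17 to 22.6 FPKM in K10-spastin and 3.25 to 13.8 FPKM in control. Inner root sheath markers summed to 1.26 to 2.46 FPKM in K10-spastin and 0.626 to 1.25 FPKM in control, and endothelial markers to 0.23 to 0.332 FPKM in K10-spastin and 0.153 to 0.334 FPKM in control. Leukocyte markers, of which 5 of 6 were in the table, summed to 0.165 to 1.58 FPKM in K10-spastin and 0.0479 to 0.41 FPKM in control. Cd207 and Cd3e were listed at 0 in all 6 libraries. The part of these cells in the envelope values was not tested.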

How the data were processed

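Messenger RNA was measured in 3 K10-spastin and 3 control libraries. The authors deposited 1 table of FPKM for all 6 libraries. CASAVA and TopHat2 are named without versions, per the submitters' processing notes. The counting program, genome build, annotation and strand setting were not given in the sources used here. Reads of overlapping or near-identical genes may therefore be split or shared. Symbols matched 34490 of 35275 identifiers and 785 had none.

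FPKM is not a count, and count models were not used. All 11071 genes averaging 1 FPKM or more were tested on log2(FPKM + 1) with limma 3.58.1 in R 4.3.3 (lmFit, eBayes with a trend, two-sided, no covariate), with Benjamini-Hochberg adjustment over all of them. An exact permutation test of 3 against 3 cannot go below p = 0.1, so limma's p-values, which borrow variance across genes, are given. The script was tested on simulated data. Depth was read from the commonest step of low values over 14953 genes with 1 transcript; 90.6% to 91.6% of values up to 20 fragments were then whole within 0.05. Near copies were found with BLAST 2.17.0.

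The genes, their classes and the lists were chosen with earlier results of these data known. The rule for named genes took Spast, every envelope gene (in full where called or among the 2 of highest mean in its class) and up to 4 genes of each pathway list, the 2 of smallest p and the 2 of highest mean. Lce3a, Lce3b, Lce3f, Lce1m, Lce1a2, Lce6a, Kprp, Ppl, Tgm5, Crnn, Flg2 and Tchhl1 were given in full after their values were seen, as were the sequences shown. Krt15, Krt13, Lhx2 and Dcn are the markers that were called. Sox9, Sfn, Krt4, Krt19, Krt8, Krt5, Krt14, Itga6, Itgb4, Col17a1, Spink5, Cst6, Csta1, Spint1 and the motif TGACTCA were added after the values were seen. The 17 alternatives were pseudocounts of 0.1 and 0.5, no filter, a filter at 5 FPKM, 2 scalings, no trend, robust variances, array weights, the replicate block, each library left out, and, chosen after seeing the data, control 1 and K10-spastin 1 left out together. Tables were handled with pandas 2.3.3 and numpy 2.4.6 in Python 3.11.15, and plots drawn with matplotlib 3.10.9.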

Additional observations from a re-analysis of the deposited data

How the results depend on the processing

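The direction and side of the threshold held in 541 of 628 comparisons of a tested envelope gene with 1 of 17 alternatives; 47 became called, 29 were no longer called and 11 turned direction. The genes that rose, 11 as reported, numbered 6 with no filter, 26 with array weights and 5 to 22 with 1 library left out; 1 fell under quantile normalization and 2 with array weights. Of the late genes (9), 5 rose with no filter, 24 with array weights, 5 to 21 with 1 library left out and 15 without control 1 and K10-spastin 1 together. Of the early genes (2), 1 rose with no filter, 0 to 2 with 1 library left out and 1 without those 2 libraries together. Over all genes, 319 rose and 348 fell with no filter, 1535 and 1771 with array weights, 113 to 691 and 32 to 701 with 1 library left out, and 414 fell with a filter at 5 FPKM. Without control 1 and K10-spastin 1 together, 634 of all genes rose and 625 fell. With the replicate number as a block, 17 envelope genes rose (16 late, 1 early), and over all genes 274 rose and 218 fell. The labels give these numbers no shared litter or day, and the deviations of same-numbered libraries correlated at -0.128, -0.378 and -0.047. Over all tested genes, none of the 6 libraries correlated best with its own number in the other group. In all 13 Lce1 genes, K10-spastin 1 and control 1 were both the lowest library of their group. Whether the numbers pair the samples cannot be told from these values. The log2 changes that turned direction were of genes that were not called. With 1 library left out, that of Hrnr ranged from -0.64 (without K10-spastin 3; -0.45 without control 1) to 0.61, Lor from -0.09 (without K10-spastin 3) to 1.11, Casp14 from -0.29 (without K10-spastin 1) to 0.43, Tgm3 from -0.05 (without K10-spastin 1) to 0.29 and Klf4 from -0.19 to 0.10 (without K10-spastin 2). With both control 1 and K10-spastin 1 left out, Hrnr was at -0.13, Casp14 at -0.30 and Tgm3 at -0.02. With array weights Casp14 was at -0.09 and Tgm3 at -0.07, and under quantile normalization Casp14 was at -0.04 and Klf4 at 0.05, with Klf4 at 0.07 under median-of-ratios scaling. Fits with fewer libraries have less power, though 22 envelope genes rose without K10-spastin 1, against 11 with all libraries. Over all genes, 691 and 665 rose without K10-spastin 1 and 3, against 569 with all libraries, and fewer rose without any other library. The cause of the shifts was not tested. The median log2 change of all tested genes was -0.09, and 0.01 under median-of-ratios scaling.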
